A study of Mus musculus with 15 samples.

Results

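DNA replication genes were followed across 6 genotypes of mouse prostate epithelial cells grown as organoids, which are cell clusters cultured in a gel. The set was a named list of 39 genes for replication and S phase, matched by symbol, and all 39 were found once in each of the deposited tables, among 21886 and 14301 listed genes. RNA was sequenced from 12 libraries in 6 groups of 2, and 3 further chromatin samples of the series were not analysed here. Cells came from C57BL/6 mice, and the labels do not name the Cre driver behind the alleles written as PC.

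All 4 groups of the first table came from 3-month-old mice and share a background genotype, which the controls carry too. They were control, Setd2 null (Setd2 PC-/-), Ezh2 null (Ezh2 PC-/-) and double null (Setd2 PC-/- and Ezh2 PC-/-). Each of those libraries pooled RNA of 3 biological replicates by equal mass, so the p-values measure only the spread between these pools. Both groups of the second table came from 2-month-old mice and share a background genotype that differs from that of the first table. They were wild-type Ezh2 and K735R (Ezh2 K735R, a lysine-to-arginine substitution), and no pool size is given for them. Values of the first table are RPKM, reads scaled to gene length and library depth, and values of the second are CPM, counts scaled to library depth. The tables were never compared by level.

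A cell copies its genome once per division. The origin recognition complex with Cdc6 and Cdt1 loads the Mcm2-7 ring on DNA before S phase, Cdc45 and the GINS complex turn the ring into an active helicase, and primase and polymerases then build the new strands. The clamp Pcna, loaded by replication factor C, holds the polymerases on DNA, while Rpa coats single strands, Fen1 and Lig1 finish the lagging strand, and Rrm1, Rrm2, Tyms and Tk1 supply nucleotides. Transcription of many of these genes rises before S phase under E2F factors, which the Rb protein restrains. Ezh2 is the methyltransferase of Polycomb repressive complex 2 that sets H3K27me3, and Setd2 trimethylates H3K36.

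Depth, labels and markers set limits that apply to what follows. Recovered reads per library ranged from 29685872 to 54200685 in the first table, with all 4 Ezh2-deleted libraries deeper than all 4 with Ezh2 intact, and counts ranged from 28831228 to 37482322 in the second. Ezh2 was lower in Ezh2 null (12.7 ± 1.59 RPKM) than in control (20.1 ± 1.04, SD, n = 2; limma, adjusted p = 0.00414), and Setd2 in Setd2 null was 9.51 ± 1.07 against 16.5 ± 0.614 (adjusted p = 0.0563). Epithelial keratins were high in all 8 libraries, with Krt8 at 688 RPKM or more and Krt5 at 497 or more. Epithelial markers moved with Ezh2 genotype too: of 12 luminal markers 8 rose and 1 fell in Ezh2 null, with a median log2 difference of 1.78, Sbp (5.73) among those that rose, and of 8 basal markers 2 rose, Krt5 among them, and 3 fell. In double null against Setd2 null 8 luminal markers rose and 2 fell, and 4 basal markers rose and 3 fell. Summed over each list, luminal markers were at 4098 to 5289 RPKM with Ezh2 intact and 4016 to 4835 without it, and basal markers at 2386 to 2890 and 3735 to 6092. Of 10 stromal markers 4 were abundant enough to test and all 4 (Col1a1, Col1a2, Col3a1, Dcn) rose in Ezh2 null, and the list summed to 2.16 to 4.24 RPKM with Ezh2 intact and 29.3 to 34.4 without it, although Des and Lum stayed below 0.3. Of 9 immune markers 3 were tested and 1 rose and 1 fell, and without Cd14 and Cd68 the list summed to at most 0.0962 with Ezh2 intact, 9.23 and 9.80 with Ezh2 deleted, and 3.18 and 3.41 with both deleted, with Ptprc at 0.0582 or less. Of 6 endothelial markers 1 was tested and rose (Esam), and the list summed to 0.553 to 0.683 against 2.08 to 3.27, with Pecam1 at 0.173 or less. The part of depth and of these markers in the results below was not tested. In the second table the 2 wild-type Ezh2 libraries stood apart from each other, as described with that comparison.

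Promoter sequence gives a view of these genes that the expression values did not use. RefSeq windows of 300 bases (GRCm38.p6, the same assembly as mm10), from 250 before to 50 after a start, were given for 32 of the 39 genes. An E2F-type motif (the letters TTCCCGC, the letters TTCGCGC, the letters TTGCCGC or the letters TTGGCGC, on either strand) occurred in 22 of those 32. It was found in 67.6% of their 37 windows, against 9.57% of all 32851 windows, which were not matched for base composition or expression. In 28 mitosis genes, of which 22 had a window, it was found in 3. The CCAAT box, by its letters on either strand, was found in 62.2% of the replication windows and 37.4% of all windows. The CHR motif (the letters TTTGAA or the letters TTCGAA, on either strand) was found in 16.2% of replication windows, 19.2% of all windows and 15 of the 22 mitosis genes with a window. E2F-type matches can overlap each other and a CCAAT box.

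The 150 bases before the start are shown for 9 genes, with E2F-type matches in capitals. The first 6 were chosen because they carry matches and cover different roles. Within the stretch shown Mcm6 has 4 in 2 overlapping pairs, Chaf1a and Pola1 have 2, and Prim1, Rpa2 and Rrm1 have 1. The whole windows of Mcm6 and Pola1 hold 5 and 4. Mcm2, with the largest called rise on the log2(RPKM + 1) scale below, and Rfc5, with the smallest p, have no match in the whole window, and Rrm2, with the smallest difference, has its single match outside the stretch shown. A match is a description of the letters and not a binding site.
Mcm6, chr1:128359706-128359855, minus strand: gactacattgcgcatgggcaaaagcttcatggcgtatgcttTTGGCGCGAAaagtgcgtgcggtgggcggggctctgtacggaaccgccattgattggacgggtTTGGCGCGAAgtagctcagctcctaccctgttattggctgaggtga
Chaf1a, chr17:56040266-56040415, plus strand: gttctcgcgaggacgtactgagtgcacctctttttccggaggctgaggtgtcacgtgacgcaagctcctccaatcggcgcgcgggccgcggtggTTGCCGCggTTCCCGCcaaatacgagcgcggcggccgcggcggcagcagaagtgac
Pola1, chrX:93632156-93632305, minus strand: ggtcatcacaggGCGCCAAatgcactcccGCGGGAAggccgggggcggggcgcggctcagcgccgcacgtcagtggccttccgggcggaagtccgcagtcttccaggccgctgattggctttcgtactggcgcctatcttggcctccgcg
Prim1, chr10:128015065-128015214, plus strand: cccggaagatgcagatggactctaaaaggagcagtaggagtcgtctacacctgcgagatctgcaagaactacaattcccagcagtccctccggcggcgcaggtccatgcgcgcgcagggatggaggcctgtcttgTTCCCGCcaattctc
Rpa2, chr4:132768210-132768359, plus strand: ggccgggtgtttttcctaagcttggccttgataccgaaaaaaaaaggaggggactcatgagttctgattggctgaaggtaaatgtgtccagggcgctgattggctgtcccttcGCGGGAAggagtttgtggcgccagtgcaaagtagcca
Rrm1, chr7:102441545-102441694, plus strand: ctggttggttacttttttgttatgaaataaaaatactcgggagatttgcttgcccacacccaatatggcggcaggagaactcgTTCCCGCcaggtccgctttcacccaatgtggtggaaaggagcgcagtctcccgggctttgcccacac
Mcm2, chr6:88898781-88898930, minus strand: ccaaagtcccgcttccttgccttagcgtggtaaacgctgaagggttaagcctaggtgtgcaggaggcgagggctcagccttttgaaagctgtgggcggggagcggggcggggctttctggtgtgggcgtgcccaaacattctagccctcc
Rfc5, chr5:117389024-117389173, minus strand: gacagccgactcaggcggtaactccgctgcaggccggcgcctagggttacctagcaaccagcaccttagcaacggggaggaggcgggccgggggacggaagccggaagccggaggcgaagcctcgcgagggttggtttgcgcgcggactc
Rrm2, chr12:24708104-24708253, plus strand: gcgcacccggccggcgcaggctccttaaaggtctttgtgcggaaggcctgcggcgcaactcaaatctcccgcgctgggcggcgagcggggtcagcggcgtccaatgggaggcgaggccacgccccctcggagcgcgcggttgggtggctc

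Deletion of Ezh2 was compared with control first. Of the 39 replication genes 37 rose in Ezh2 null and none fell, where 36.1% of the 11338 genes tested rose and 56.6% changed in either direction (limma on log2(RPKM + 1), adjusted p at most 0.05, called from here on). The median difference of the 39 genes was 1.23 on that log2 scale, against 0.18 for all genes tested, and 26 of the 39 rose at least 2-fold on the fitted scale, against 12.1% of all genes. The ratio of mean RPKM had a median of 2.63 over the 39 genes. In each of the 39 genes both Ezh2 null libraries lay above both controls, as they did in 50.9% of all genes, and the difference was positive in 60.7% of all genes. The genes were chosen with earlier results of these data known, so these shares are a description and not a test of the list. In these bulk samples more cells in S phase and more RNA per cell cannot be told apart. With median-ratio scaling the median of all genes was 0.02 and that of the 39 genes 1.06, 35 of the 39 were called, and the share of all calls that were higher went from 63.8% to 50.3%.

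**Figure D1:**
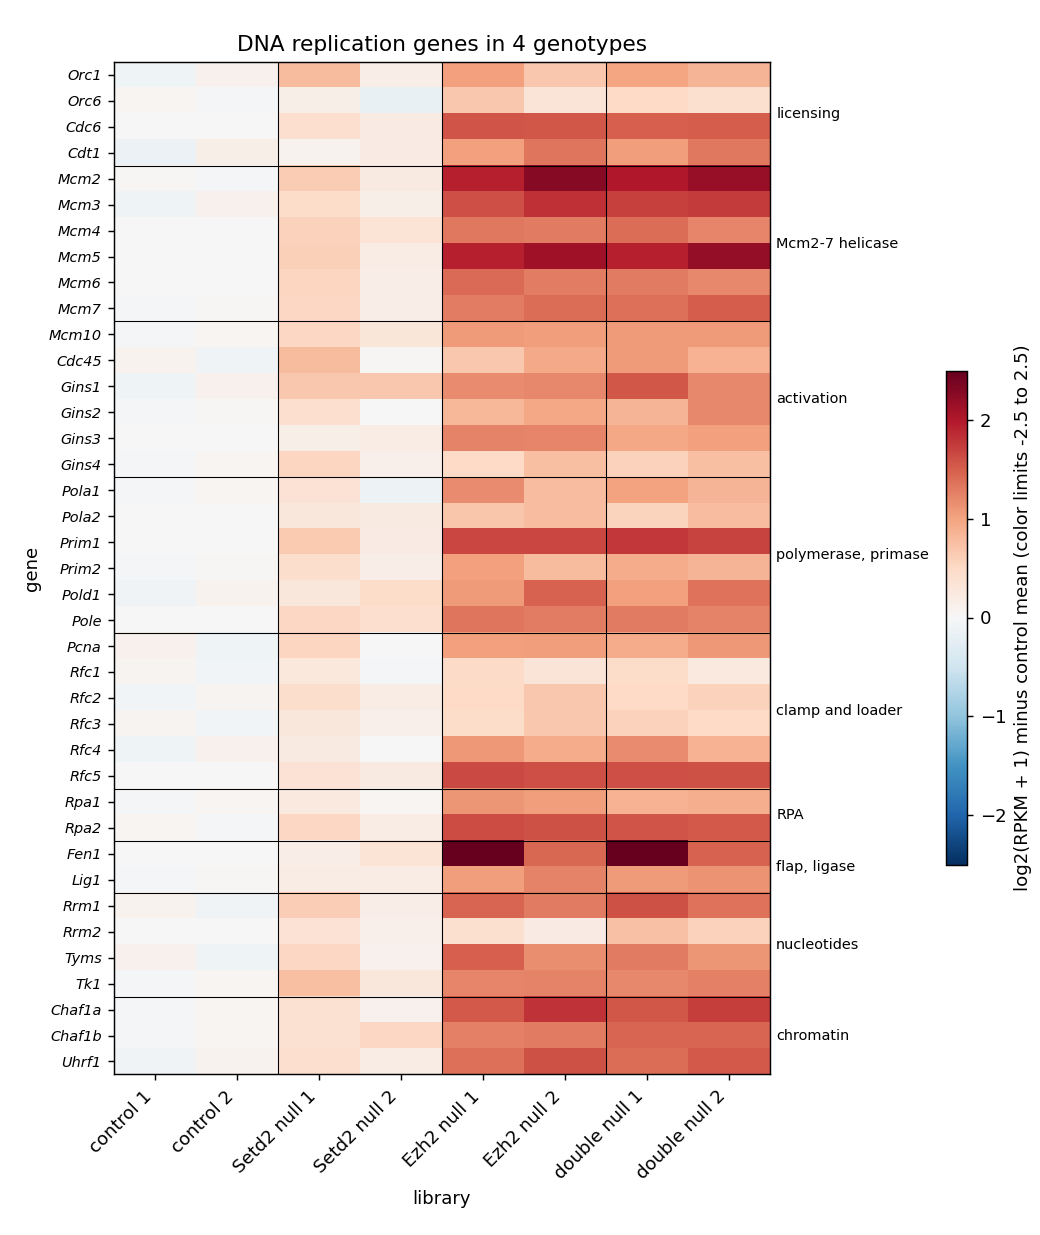
Each row is a replication gene, grouped by role, and each column a library of the 4 groups of the first table; color is log2(RPKM + 1) minus the control mean, with limits of -2.5 and 2.5. All 39 rows are redder in the 4 libraries without Ezh2 than in the controls. The Setd2 null columns lie closer to control but are redder than it in most rows, the first column more so than the second.

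Among the licensing genes, which prepare origins, all 4 rose. Cdc6, the loading factor of the helicase (chr11:98907699-98923942), was at 0.920 and 0.878 RPKM in control, 1.54 and 1.19 with Setd2 deleted, 4.64 and 4.54 with Ezh2 deleted, and 4.35 and 4.46 with both deleted. The 4 Ezh2-deleted libraries were close together and far above the rest, and the difference to control was 1.56 ± 0.12 (SE, limma adjusted p = 6.1e-06), a 5.10-fold ratio of means. Orc6, a subunit of the origin recognition complex, was at 8.54 and 7.95 in control, 9.16 and 7.13 with Setd2 deleted, 13.7 and 10.6 with Ezh2 deleted, and 12 and 11.1 with both deleted. Its groups with and without Ezh2 did not overlap, but the difference was small, at 0.50 ± 0.16 (limma adjusted p = 0.0219), and was no longer called in 7 of 17 alternative settings, with adjusted p up to 0.174. Cdt1, which loads the ring together with Cdc6, rose by 1.18, and Orc1, the largest subunit of the origin complex, by 0.85 from a low level of 0.631 ± 0.17 RPKM. The call of Orc1 was lost without library 1 of Ezh2 null and of double null, an alternative added after seeing the data (limma adjusted p = 0.0734). Orc1 overlaps the opposite-strand gene Prpf38a over 3717 bases, so its reads may include those of that neighbour.

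All 6 subunits of the Mcm2-7 helicase rose, each at least 2-fold. Mcm2 (chr6:88883474-88898780) was at 8.56 and 8.26 RPKM in control, 13.6 and 9.93 with Setd2 deleted, 35.4 and 44.3 with Ezh2 deleted, and 36.5 and 41.3 with both deleted. Its difference of 2.11 ± 0.17 (limma adjusted p = 6.56e-06) was the largest of the called genes on the log2(RPKM + 1) scale, and its ratio of means was 4.74-fold, below that of Cdc6. Mcm7, the subunit with the largest p of the 6, was at 17.6 and 18.6 in control, 26.4 and 20.3 with Setd2 deleted, 45.6 and 49.4 with Ezh2 deleted, and 48.4 and 53.3 with both deleted. Its difference of 1.35 ± 0.14 (limma adjusted p = 4.87e-05) was still far outside the spread between libraries. Mcm5 rose by 2.03, Mcm3 by 1.72, Mcm6 by 1.35 and Mcm4 by 1.3. The mean RNA levels of the 6 genes lay closer together without Ezh2, a difference that was not tested. In control they ran from 8.05 (Mcm5) to 18.1 RPKM (Mcm7), a ratio of 2.25, and in Ezh2 null from 31.6 (Mcm4) to 47.5 (Mcm7), a ratio of 1.5.

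All 6 genes that activate the helicase rose as well. Gins3, a GINS subunit, was at 0.766 and 0.804 RPKM in control, 0.967 and 1.02 with Setd2 deleted, 3.23 and 3.16 with Ezh2 deleted, and 2.5 and 2.63 with both deleted. It rose by 1.23 ± 0.11 (limma adjusted p = 1.58e-05), a 4.07-fold ratio of means, and the library pairs were close. Cdc45, which binds the ring together with GINS, was at 3.37 and 2.85 in control, 6.07 and 3.17 with Setd2 deleted, 5.55 and 6.89 with Ezh2 deleted, and 7.59 and 6.45 with both deleted. Here the first Setd2 null library fell among the Ezh2-deleted ones, and the rise of 0.81 ± 0.23 in Ezh2 null (limma adjusted p = 0.0124) was lost without control library 2 or Ezh2 null library 2, with adjusted p up to 0.0779. Gins1 rose by 1.19, Mcm10, a scaffold of the firing origin, by 1.05, Gins2 by 0.90 and Gins4 by 0.62. The rise of Gins4 was lost without control library 1 or Ezh2 null library 2, with adjusted p up to 0.0553. The GINS genes differed widely in level in control, from Gins3 to Gins4 at 12.2 RPKM, a ratio of 15.6, which was 6.09 in Ezh2 null.

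Polymerase and primase genes rose in all 6 cases. Pole, the catalytic subunit of the leading-strand polymerase, was at 1.96 and 1.95 RPKM in control, 3.23 and 2.97 with Setd2 deleted, 6.47 and 6.13 with Ezh2 deleted, and 6.28 and 5.94 with both deleted. The Setd2 null libraries lay between control and the Ezh2-deleted ones, and the rise in Ezh2 null was 1.31 ± 0.12 (limma adjusted p = 1.38e-05). Pola1, the catalytic subunit of the polymerase that extends primers, was at 3.19 and 3.51 in control, 4.61 and 3.00 with Setd2 deleted, 8.85 and 6.40 with Ezh2 deleted, and 7.75 and 6.85 with both deleted. It rose by 0.97 ± 0.19 (limma adjusted p = 0.00191), although the 2 Ezh2 null libraries differed more than those of Pole. Prim1, the catalytic primase subunit, rose by 1.67, Pold1 of the lagging-strand polymerase by 1.27, Prim2 by 0.91 and Pola2 by 0.73.

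The clamp and its loader rose in all 6 genes but by very different amounts. Rfc5 (chr5:117379145-117389023) was at 7.57 and 7.44 RPKM in control, 9.88 and 8.94 with Setd2 deleted, 25.7 and 24.8 with Ezh2 deleted, and 25.0 and 24.5 with both deleted. Its rise of 1.63 ± 0.11 (limma adjusted p = 2.4e-06) had the smallest p of the 39 genes. Rfc1, the large subunit of the same loader, was at 11.2 and 10.2 in control, 13 and 10.4 with Setd2 deleted, 15.2 and 13.6 with Ezh2 deleted, and 15.2 and 12.8 with both deleted. The smallest rise called was that of Rfc1, 0.40 ± 0.14 (limma adjusted p = 0.0387), and it was lost in 9 of 17 alternatives, with adjusted p up to 0.205. Rfc4 rose by 1.01, Rfc2 by 0.59 and Rfc3 by 0.57, the last no longer called by edgeR on the recovered reads (adjusted p = 0.0502). Pcna, the clamp itself and the most abundant of the 39 genes in control at 62.3 ± 6.65 RPKM, rose by 1.04 to 129 ± 0.658.

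Of the single-strand binding genes Rpa2 rose more than Rpa1. Rpa2 was at 4.85 and 4.41 RPKM in control, 7.09 and 5.41 with Setd2 deleted, 16.4 and 16.0 with Ezh2 deleted, and 15.8 and 15.4 with both deleted, a rise of 1.61 ± 0.14 in Ezh2 null (limma adjusted p = 1.01e-05). Rpa1 was at 20.6 and 22.3 in control, 25.4 and 22.1 with Setd2 deleted, 47.5 and 45.5 with Ezh2 deleted, and 40.0 and 41.0 with both deleted, a rise of 1.08 ± 0.12 (limma adjusted p = 6.16e-05). Both genes kept their groups with and without Ezh2 apart, and the difference between the 2 rises was not tested.

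Lig1, which joins the lagging-strand fragments, was at 12.5 and 13 RPKM in control, 14.6 and 14.8 with Setd2 deleted, 27.3 and 31.4 with Ezh2 deleted, and 27.9 and 29.0 with both deleted. It rose by 1.13 ± 0.12 (limma adjusted p = 3.94e-05) and overlaps the opposite-strand gene 6330408A02Rik over 1409 bases. Fen1, the flap nuclease (chr19:10199132-10204187), was at 0.951 and 0.947 in control and 1.19 and 1.49 in Setd2 null. In Ezh2 null it was at 19.7 and 4.26, and with both genes deleted at 22.7 and 4.44, so library 1 of both groups was far above library 2. The difference to control was 2.42 ± 0.99 and was not called (limma adjusted p = 0.103). In the same alternative, without library 1 of both Ezh2-deleted groups, it was 1.43 and called (adjusted p = 0.000806). This split was rare: 108 of the 11338 genes were at least 1.5 log2 units higher in library 1 than in library 2 of both Ezh2 null and double null, none was that much lower in both, and Fen1 was the only replication gene among the 108. The opposite-strand gene Tmem258 starts after a gap of 14 bases from Fen1 and had 2245 and 2616 reads in Ezh2 null, without that split.

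**Figure D2:**
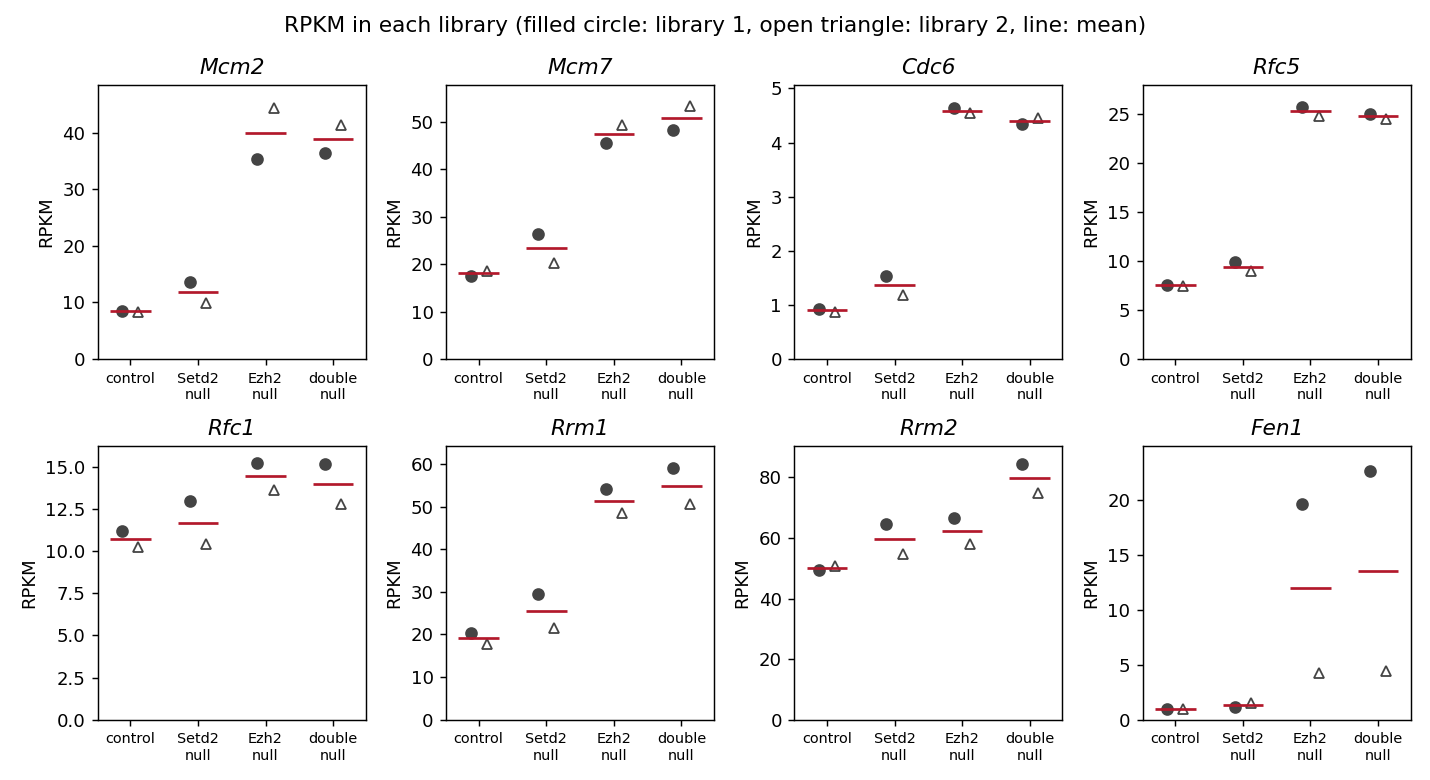
RPKM (vertical axis, from 0) of 8 replication genes in the 4 groups, with library 1 as a filled circle, library 2 as an open triangle and the group mean as a line. Mcm2, Mcm7, Cdc6, Rfc5 and Rrm1 form a low and a high level by Ezh2 genotype, Rfc1 and Rrm2 move little, and Fen1 has library 1 at 19.7 and 22.7 and library 2 at 4.26 and 4.44 in the groups without Ezh2.

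The nucleotide genes were split. Rrm1, the large subunit of ribonucleotide reductase (chr7:102441695-102469771), was at 20.3 and 17.8 RPKM in control, 29.6 and 21.6 with Setd2 deleted, 54.1 and 48.4 with Ezh2 deleted, and 59.1 and 50.5 with both deleted. It rose by 1.38 ± 0.17 (limma adjusted p = 0.000101). Rrm2, the small subunit of the same enzyme (chr12:24708254-24714146), was at 49.4 and 50.8 in control, 64.6 and 54.7 with Setd2 deleted, 66.6 and 57.9 with Ezh2 deleted, and 84.4 and 75.0 with both deleted. Its Ezh2 null libraries were above control but interleaved with Setd2 null, and the difference of 0.30 ± 0.14 was not called (limma adjusted p = 0.0865, from 0.0263 to 0.488 over the alternatives, called only with the replicate number as a block). Tyms, which makes thymidylate, rose by 1.33 and Tk1, which salvages thymidine, by 1.23.

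All 3 genes that restore chromatin behind the fork rose. Chaf1a, the large subunit of the histone chaperone CAF-1, was at 4.74 and 5.16 RPKM in control, 6.78 and 5.41 with Setd2 deleted, 16.2 and 19.9 with Ezh2 deleted, and 16.5 and 18.7 with both deleted, a rise of 1.67 ± 0.15 (limma adjusted p = 1.4e-05). Uhrf1, which brings maintenance DNA methylation to new strands, was at 14.4 and 16.4 in control, 20.9 and 17.5 with Setd2 deleted, 41.2 and 48.1 with Ezh2 deleted, and 42 and 46.4 with both deleted, a rise of 1.48 ± 0.14 (limma adjusted p = 2.31e-05). Chaf1b, the second CAF-1 subunit, rose by 1.27. The 22 genes with an E2F-type promoter match had a median difference of 1.31, the 10 with a window but no match 1.07 and the 7 without a window 0.91, with broad overlap, since Mcm2 is among the 10 and Rrm2 among the 22.

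The effect of Ezh2 deletion in cells that also lacked Setd2 was read from double null against Setd2 null, which shares no library with the comparison above. Of the 39 genes 32 rose and none fell, where 35.6% of all genes rose and 55.0% changed in either direction, and 13 rose at least 2-fold, against 11.5% of all genes. The median difference was 0.84, against 0.18 for all genes tested, and both double null libraries lay above both Setd2 null libraries in 38 genes, as in 48.4% of all genes, with a positive difference in 61.2%. The exception was Rfc1, whose libraries overlapped. Genes not called were Orc1 (0.44, limma adjusted p = 0.0962), Cdc45 (0.56, 0.0609), Gins4 (0.33, 0.1), Rfc1 (0.24, 0.181), Rfc2 (0.23, 0.18), Rfc3 (0.33, 0.0518) and Fen1 (2.28, 0.121). Of these Orc1, Cdc45, Gins4 and Rfc3 were called when Setd2 null library 1 was left out, and the count was then 36. Rrm2 rose here, from 59.6 ± 7.02 to 79.7 ± 6.70 RPKM, by 0.41 ± 0.14 (limma adjusted p = 0.0289), a call lost in 9 of 17 alternatives, with adjusted p up to 0.17. With median-ratio scaling 29 of the 39 were called, at a median of 0.67, and the share of all calls that were higher went from 64.7% to 50.3%.

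Across the 39 genes the differences in both settings were closely related, with Pearson's r = 0.954 and Spearman's rho = 0.928. This is a description across genes, which are not independent, and every gene of a comparison shares its 4 libraries. The 2 comparisons share no library, but same-numbered libraries of Ezh2 null and double null deviated alike, at r = 0.912 over the 39 genes. Fen1 had the largest split between libraries in both groups, at 1.98 and 2.12 log2 units, and r without it was not worked out. Cdc45 split in opposite directions in the 2 groups. The part of that likeness in the relation was not tested. The largest called differences in double null against Setd2 null were 1.68 in Mcm5, 1.65 in Mcm2, 1.43 in Mcm3, 1.39 in Chaf1a, 1.31 in Rfc5 and 1.3 in Prim1. The difference was smaller with Setd2 deleted in 38 of the 39 genes, all but Rrm2, and 31 genes were called in both.

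**Figure D3:**
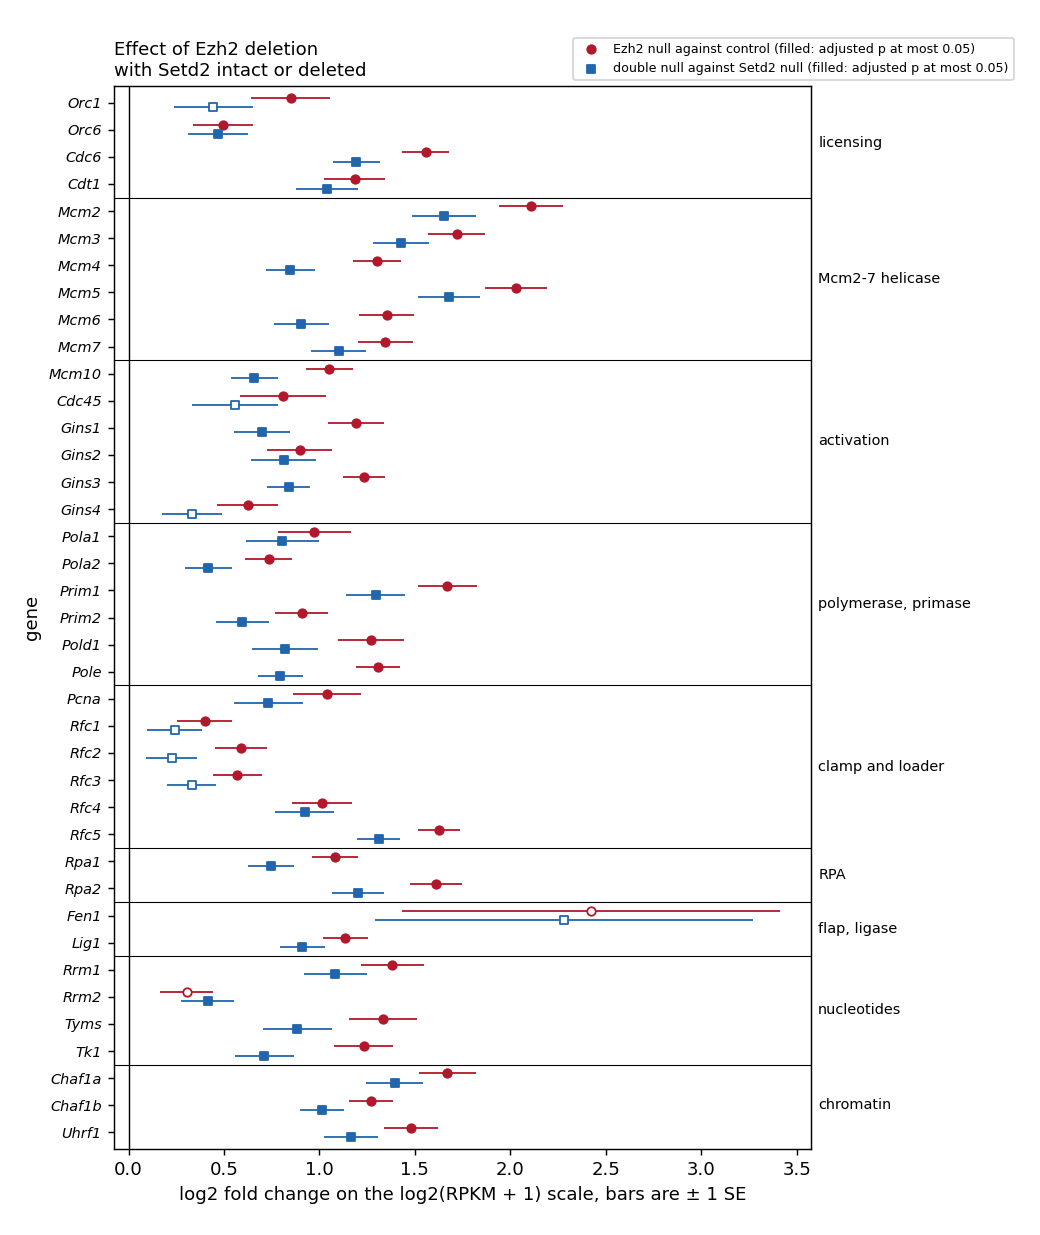
Log2 difference on the log2(RPKM + 1) scale with 1 SE on either side for Ezh2 null against control (red circles) and double null against Setd2 null (blue squares), by gene and role; filled symbols passed an adjusted p of 0.05. All 39 genes are to the right of 0 in both comparisons, and the blue symbol is to the left of the red one in each gene but Rrm2.

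That difference between settings was tested as the interaction of both deletions. None of the 39 genes was called by limma or by edgeR on the recovered reads, where limma called 2.59% of all genes (1.69% positive). An unadjusted limma p under 0.05 was found in 6 of the 39 and in 1166 of the 11338 genes tested. The interaction was negative in 38 genes, with a median of -0.31, against -0.01 for all genes, of which 48.8% were positive. Pole had the smallest p, at -0.51 ± 0.16 (limma adjusted p = 0.208), followed by Mcm4 at -0.45 ± 0.18 (adjusted p = 0.372) and Gins3 at -0.40 ± 0.16 (adjusted p = 0.385). In Mcm4 the values were 12 and 12.4 RPKM in control, 18.6 and 15.8 with Setd2 deleted, 31.8 and 31.4 with Ezh2 deleted, and 33.6 and 29.7 with both deleted. Its 2 Setd2 null libraries lay above control, and the groups without Ezh2 overlapped each other. The interaction uses the Setd2 null libraries described next.

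Deletion of Setd2 alone gave small differences on the log2(RPKM + 1) scale. The ratio of mean RPKM had a median of 1.29 over the 39 genes, against 0.99 over all genes. It was highest in Orc1, a gene of low level, at 2.08. None of the 39 was called in Setd2 null against control, where 1.07% of all genes were (0.379% higher and 0.688% lower), by limma or by edgeR on the recovered reads, and 17 of the 39 had an unadjusted p under 0.05, with 1313 of the 11338 genes tested. The difference was positive in 38 of the 39 (46.2% of all genes), with a median of 0.31 against -0.02, and both Setd2 null libraries lay above both controls in 29 (18.5% of all genes). Gins1 had the smallest p, with 1.60 and 1.98 RPKM in control and 3.44 and 3.43 in Setd2 null, a difference of 0.67 ± 0.15 (limma adjusted p = 0.0778, from 0.0545 to 0.503 over the alternatives). Pole followed at 0.47 ± 0.12 (adjusted p = 0.118). Chaf1b, at 5.53 and 6.05 in control and 7.81 and 8.73 in Setd2 null, differed by 0.45 ± 0.12 (adjusted p = 0.137) and was the 1 gene called with the replicate number as a block. Tk1 (0.52, adjusted p = 0.211) was the 1 gene called without Setd2 null library 2 (adjusted p = 0.0409).

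The 2 Setd2 null libraries differed from each other in the same genes. Library 1 was above library 2 in 33 of the 39, against 52.5% of all genes. The median was 0.27 log2 units in the 39 genes and 0.02 in all genes, of which 17.6% reached the replication genes' median. Relative to control the medians of the 39 genes were 0.43 in library 1 and 0.18 in library 2. All 28 mitosis genes were also higher in library 1, by a median of 0.51. Its depth was 32200738 reads against 34880558. Library 1 lay above both controls in 38 replication genes (39.7% of all genes) and library 2 in 30 (32.8% of all genes), with 2 below both.

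With Ezh2 already deleted, loss of Setd2 left the 39 genes near where they were. None was called in double null against Ezh2 null by limma or by edgeR on the recovered reads. Limma called 6.49% of all genes there (3.79% higher and 2.7% lower). An unadjusted limma p under 0.05 was found in 1 of the 39 and in 1779 of the 11338 genes tested. The median difference was -0.01, with 17 genes positive (45.9% of all genes) and 22 negative, and the libraries did not overlap in 3 higher genes and 4 lower ones, against 19.5% and 22.8% of all genes. Rrm2, the gene of smallest p, was at 62.3 ± 6.14 RPKM in Ezh2 null and 79.7 ± 6.70 in double null, a difference of 0.35 ± 0.14 (limma adjusted p = 0.234). Gins3 was 0.24 lower (-0.24 ± 0.11, adjusted p = 0.368), and Chaf1b was at 15.1 and 15.6 against 17.6 and 17.7 (0.19 ± 0.12, adjusted p = 0.548). Double null against control, which shares its libraries with the comparisons above, gave 37 higher genes, where 34.2% of all genes rose, 20% fell, 54.2% changed in either direction and 59.9% had a positive difference, with a median of 1.19. With median-ratio scaling the share of all calls that were higher went there from 63.0% to 50.4%. Fen1 and Rfc1 were not called there.

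The K735R substitution was compared with wild-type Ezh2. None of the 39 genes was called by edgeR's quasi-likelihood test, where 0.00757% of the 13203 genes tested were (1 gene), and none had an unadjusted p under 0.05, with 1220 of all genes. DESeq2 and limma on log2 CPM called none either. The median difference was -0.06, with 11 genes positive (48.0% of all genes) and 28 negative. The groups overlapped in all 39 genes, where 21.0% of all genes did not overlap and were higher in K735R and 21.4% lower. Orc1, the gene of smallest p, was at 7.10 and 3.45 CPM in wild-type Ezh2 and 9.15 and 6.74 in K735R, a difference of 0.59 ± 0.42 (edgeR adjusted p = 0.715). Rfc1 was at 77.9 and 53.6 against 60.1 and 52.2 (-0.23 ± 0.21, edgeR adjusted p = 0.777), and Mcm7 at 129 and 77.9 against 91 and 80.2 (-0.28 ± 0.26, edgeR adjusted p = 0.793).

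The spread between the wild-type libraries set what this comparison could show. Wild-type library 1 was above library 2 in 38 of the 39 genes, all but Gins4, by a median of 1.04 log2 units or a 2.15-fold median ratio, while the median of all genes was -0.01 and 2.56% of them reached the replication genes' median. In 36 genes both K735R libraries lay between the 2 wild-type ones, the others being Orc1, Gins4 and Rfc1. Mcm5 had the largest split between the wild-type libraries, at 1.59 log2 units, with 96.7 and 31.5 CPM in wild-type Ezh2 and 60.4 and 51.7 in K735R. The median coefficient of variation was 51.5% in wild-type Ezh2 and 11.3% in K735R. Neither that position nor this variation was worked out over all genes, so no background share is given for them. Mitosis genes split the same way, with all 28 higher in wild-type library 1, by a median of 1.55. The basal keratin Krt5 was also higher in library 1, at 3963 and 1661 CPM, while the luminal keratin Krt8 was lower there, at 1939 and 3653. Summed over the markers found in the second table, the lists differed by less. Basal markers were at 13298 and 9266 CPM in wild-type libraries 1 and 2, and luminal markers at 7357 and 10205. The part of cell composition in that split was not tested. Without wild-type library 1, 7 of the 39 genes were called higher in K735R (2.79% of all genes), with a median of 0.65, and without library 2, 16 were called lower (4.11% of all genes), with a median of -0.52.

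**Figure D4:**
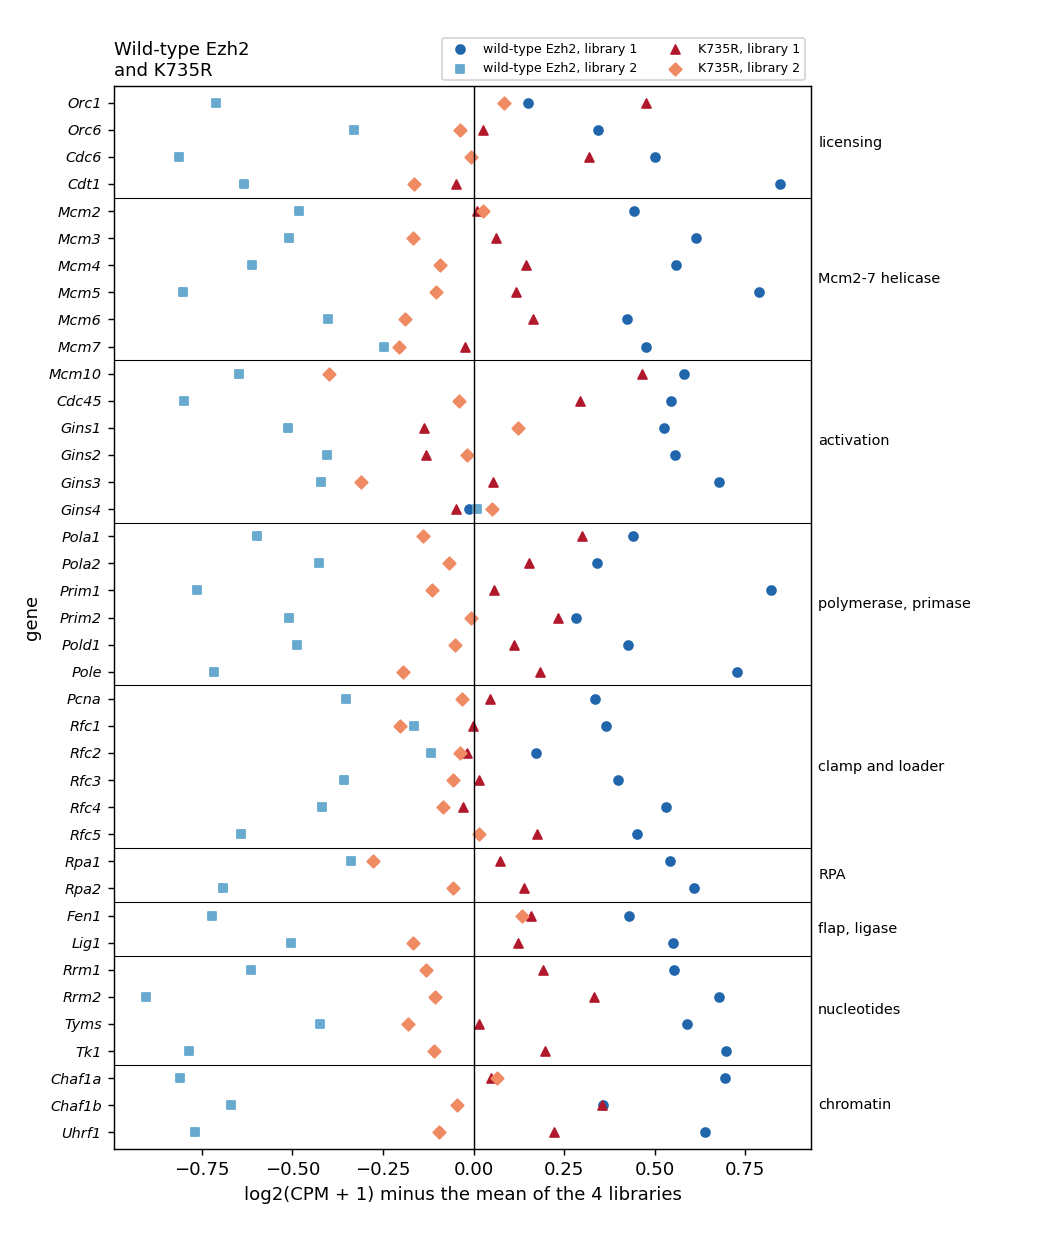
Log2(CPM + 1) minus the mean of the 4 libraries for each replication gene (rows, by role), with wild-type Ezh2 in blue and K735R in red and orange. The wild-type libraries are the outermost points in 36 rows, library 1 on the right, and the K735R libraries lie between them.

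Other genes of the same process were read from lists of related genes. Of 47 further replication genes 28 rose and 2 fell in Ezh2 null against control, with a median of 0.55, where 36.1% of all genes rose and 20.5% fell. In double null against Setd2 null 24 rose and 2 fell, where 35.6% of all genes rose and 19.4% fell, and the same shares apply to the lists that follow. Those of smallest p were Wdhd1, which ties the helicase to polymerase alpha (1.64 ± 0.0496 to 6.12 ± 0.645 RPKM, 1.43), Clspn, a fork checkpoint mediator (1.04 ± 0.128 to 5.32 ± 0.391, 1.63), Pole3 (1.26), Chtf18 of an alternative clamp loader (1.51), Dna2, a flap nuclease (1.38), and Dtymk, thymidylate kinase (1.60). Orc3 fell, from 8.51 ± 0.865 to 4.87 ± 0.875 RPKM (-0.70 ± 0.17, limma adjusted p = 0.0058), while Orc1 and Orc6 of the same complex rose. Its call was lost in an alternative at adjusted p = 0.0524. Rrm2b, the small reductase subunit that serves outside S phase, was lower at 2.76 ± 0.557 against 3.93 ± 0.458 (-0.40, limma adjusted p = 0.0466, up to 0.291 over the alternatives).

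Of 24 regulators of the G1 to S step, 23 were tested. The list held E2F factors and their partners, Rb proteins and cyclin E, and also Cdk2, Cdc25a, Lin genes, Myc, Mycn and Trp53. In Ezh2 null against control 13 rose, 10 were not called and 3 of those tested had a negative difference, with a median of 0.61. In double null against Setd2 null 12 rose and 5 had a negative difference, and none was called lower in either comparison. Tfdp1, the partner of E2F factors, went from 22 ± 1.19 to 48.0 ± 0.0379 RPKM (1.10 ± 0.13, limma adjusted p = 8.28e-05). Myc went from 25.6 ± 1.09 to 60.0 ± 2.66 (1.20), the repressor E2f7 from 0.762 ± 0.0459 to 2.78 ± 0.326 (1.10), and E2f8, Ccne1 and E2f2 rose by 1.02, 1.17 and 0.83. Of the 28 mitosis genes 21 rose and none fell, with a median of 0.81, and 19 rose in double null against Setd2 null. Cdc20, which activates the anaphase ligase, rose by 1.89, the mitotic kinases Plk1 and Aurkb by 1.48 and 1.3, Mybl2 and Foxm1, factors for mitotic transcription, by 1.48 and 1.07, and Birc5 by 1.07. No gene of these 3 lists was called in Setd2 null against control, in double null against Ezh2 null, in the interaction or in K735R against wild-type Ezh2.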

How the data were processed

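RNA was sequenced as paired reads of 150 bases, per the labels. The submitters' processing notes name mm10, Bowtie, RSEM, BWA and SICER, without roles. Versions and strandedness are not stated in those notes or labels. RPKM values for 8 libraries and whole-number counts for 4 were deposited by the authors. RPKM steps gave whole reads within 0.01 in 13744 of 13748 genes above 0 in all 8 libraries (99.97%). Those values were fitted as log2(RPKM + 1) with limma 3.58.1 (trend, robust, all 4 groups, mean of at least 1 RPKM, 11338 genes). Counts were fitted with edgeR 4.0.16 (quasi-likelihood, TMM, its low-count filter, 13203 genes); CPM uses TMM-scaled sizes. P-values are two-sided and Benjamini-Hochberg adjusted over all genes tested, and 0.05 was the threshold. DESeq2 1.42.0, edgeR on recovered reads, other scalings and filters, a replicate block and leaving out libraries were alternatives. The scripts were tested on simulated data. Members and lists were chosen with earlier results of these data known. Values per library are given for the genes of smallest and largest p in each role, and for the 3 of smallest p in the other comparisons; others were named after their values were seen. Chromatin samples were not analysed here. The background genotype shared by the groups of each table is not reported here.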

Additional observations from a re-analysis of the deposited data

How the results depend on the processing

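With 2 libraries a group the calls rest on a spread shared across groups, and the RPKM scale with a pseudocount understates changes of low genes. The count of called replication genes in Ezh2 null against control ran from 34 to 38 over the alternatives that tested all 39, and was 29 at a mean of at least 5 RPKM, which fewer of them pass. In double null against Setd2 null it ran from 28 to 36, and 26 at that filter. Leaving out 1 library at a time gave 34 to 37, 29 to 36 and, in double null against control, 35 to 38. In Setd2 null against control it gave 0 to 1, with 1 gene without Setd2 null library 2. In K735R against wild-type Ezh2 it gave 0 to 16, with 7 without wild-type library 1 and 16 without library 2. Without wild-type library 1 the difference reversed to 0.066 in Rfc1 and 0.14 in Mcm7, neither called, and without library 2 it was called at -0.47 in Rfc1 and -0.59 in Mcm7. The lone library of a group is assumed there to vary like the others. Over all genes of that comparison DESeq2 called 285 and edgeR 1.

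Replicate numbers were used as a block in an alternative, since libraries of different groups share them, although nothing in the labels says that a number pairs libraries. Deviations of same-numbered libraries correlated at 0.933 over all genes between Ezh2 null and double null, and at 0.105 to 0.358 between other groups. With the block, calls were 38 in Ezh2 null against control, 34 in double null against Setd2 null, 38 in double null against control, 1 in Setd2 null against control and 0 in double null against Ezh2 null, the interaction and K735R.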
